A study of Mus musculus with 12 samples.

Results

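Autophagy transcripts were compared in cultured mouse microglia, the resident macrophages of the brain, across 2 genotypes and 2 times. The genes described here were 37 listed genes for the core autophagy machinery and for cargo receptors, out of 55421 genes in the count table. They were taken by symbol and kept where at least 10 reads were counted in 3 or more of the 12 libraries. All 37 met that rule and all 37 passed the low-count filter of the test. The lowest count of any of them in any library was 85, for Gabarapl2.

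Control mice (WT below) had the genotype Cx3cr1EGFP, a fluorescent reporter in a microglial chemokine receptor gene. Knockout mice (KO) were Slc2a5-/-::Cx3cr1EGFP, so they carried the same reporter and lacked Slc2a5, which encodes the fructose transporter GLUT5; the labels name no cell-type driver for the deletion. Mice were labelled male and 35 to 40 days old (30 to 45 in the protocol), and microglia were sorted from dissociated brain. Cells of both genotypes underwent 6 h of oxygen-glucose deprivation (OGD), which imitates ischaemia in a dish, and were taken at its end or after 24 h of recovery. Each combination gave 3 libraries, named by genotype and time (WT-OGD or KO-recovery, for example), and no library without OGD was analysed here. The design asks what recovery changes in each genotype and what loss of Slc2a5 changes at each time.

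In autophagy, a kinase complex around ULK1 starts a double membrane, a lipid kinase complex marks it with the phosphoinositide PI3P, and PI3P-binding, lipid-transfer and scramblase proteins let it grow. Conjugation enzymes then attach small ubiquitin-like proteins of the ATG8 family (LC3 and GABARAP) to the membrane, and cargo receptors bind both these and the cargo. In microglia the pathway is known for handling engulfed material, damaged mitochondria and protein aggregates. Receptor and LC3 proteins are themselves degraded by autophagy, so transcript levels do not measure the flux through it.

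Several properties of the libraries touch the values. Total counts were 31509859 to 45347118 in OGD libraries and 9885259 to 19915479 in recovery libraries, and mitochondrial reads made up 4.20% to 5.75% and 4.72% to 18.4% of them. Reads counted for Slc2a5 after OGD numbered 45, 40 and 58 (WT) against 17, 4 and 17 (KO), but only 0 to 2 in each recovery library, where it could not check the genotype. Xist, the transcript of an inactive X chromosome, had 5111 to 10232 counts in the OGD libraries and 4101 to 7139 in KO-recovery but 0 to 3 in WT-recovery. After OGD, Xist was higher in KO by a log2 fold change of 0.61 (adjusted p = 0.00168, edgeR's quasi-likelihood test). Y-linked genes at that time held 3754 to 4870 counts (WT) against 2228 to 2564 (KO), and at least 590 in every library. Outside WT-recovery, such Xist counts are at odds with the label of male mice. Relative to library size, Xist was also higher after recovery than after OGD in KO, by a log2 fold change of 0.48 (adjusted p = 0.000769, edgeR's quasi-likelihood test). A difference in the source of the cells cannot be told apart from genotype at either time, nor from recovery in either genotype. WT-recovery replicate 1 was placed by its title, since its treatment field names no recovery. Of the microglial markers, Csf1r (647 to 996 CPM) and Cx3cr1 (52.0 to 87.0 CPM) were present in every library, while P2ry12 (2.93 to 12.9 CPM) and Tmem119 (0.0295 to 2.74 CPM) were low. Both genotypes carry the reporter in Cx3cr1, and its part in the Cx3cr1 counts was not tested. CPM are counts scaled to a common library size. Summed transcripts of 10 muscle, cartilage and connective tissue genes reached 281 and 244 CPM in KO-recovery replicates 1 and 3 against 9.56 to 64.3 CPM in the other 10 libraries.

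Per kilobase of exon, the members spanned a wide range of levels. The length used was that of all annotated exons of a gene merged, such as 1181 bases for Map1lc3a and 7517 for Map1lc3b. It is not the length of the transcripts expressed, so ranks and shares between genes depend on it. In WT-OGD the highest was Sqstm1 at 385 ± 45.4 CPM per kilobase (SD, n = 3), followed by Gabarap at 235 ± 15.6, Gabarapl1 at 124.8 ± 7.69 and Vmp1 at 54.3 ± 3.28. These 4 levels were separated by more than their SDs. At the low end stood Atg2b at 2.44 ± 0.047, Pik3r4 at 3.10 ± 0.152 and Rb1cc1 at 3.28 ± 0.318, and the last 2 did not differ beyond their SDs. After recovery in WT the order at the top changed, with Gabarap at 284 ± 6.77 above Gabarapl1 at 72.1 ± 1.54, Sqstm1 at 71.8 ± 1.21 and Vmp1 at 70.9 ± 8.46, the last 3 within their SDs of each other.

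Promoter sequence was examined because most members moved the same way on recovery. RefSeq promoter windows (GRCm38.p6, 250 bases before to 50 after a start) were found for 31 members, with 35 windows in all. Motifs were searched on both strands, and these were CACGTG, the core bound by TFEB and related factors; TCACGTG, a longer form that overlaps it; and TGATGNAA, a form of the element bound by ATF4. CACGTG occurred in 4 of 35 member windows (11.4%) and in 7.15% of 32851 promoter windows of all genes. TCACGTG occurred in 3 member windows (8.57%) and 3.77% of all, and TGATGNAA in 0 member windows and 3.97% of all. The 250 bases before the start had a median of 59.2% GC and 16 CpG dinucleotides in member windows, against 52.4% and 6 in all windows. The motif shares were not adjusted for that composition. The members with CACGTG were Atg3, Atg5, Atg7 and Atg14. On recovery in WT, described below, Atg3 and Atg14 were called lower, Atg5 was called higher and Atg7 was not called. A match is only a description of these letters. For Atg3, with matches beginning 94 and 71 bases before its start, for Atg5, and for Atg7, whose window belongs to an alternative start inside the gene, the sequences follow, with CACGTG in capitals. They lie at chr16:45158711-45158787, chr10:44268301-44268338 and chr6:114670940-114670993, all on the plus strand.
Atg3: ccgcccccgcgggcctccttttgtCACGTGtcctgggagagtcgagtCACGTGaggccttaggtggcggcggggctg
Atg5: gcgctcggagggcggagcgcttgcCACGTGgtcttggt
Atg7: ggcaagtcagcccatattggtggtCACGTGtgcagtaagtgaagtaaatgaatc
For the 3 receptors with the largest changes described below, the 100 bases before the RefSeq start held none of the 3 motifs. They are shown with CpG dinucleotides in capitals, 7 in each. Optn lies at chr2:5064118-5064217 (minus strand), Sqstm1 at chr11:50210821-50210920 (minus strand) and Tax1bp1 at chr6:52713629-52713728 (plus strand, the first of 2 windows).
Optn: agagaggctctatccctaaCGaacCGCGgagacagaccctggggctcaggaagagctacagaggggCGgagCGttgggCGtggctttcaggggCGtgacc
Sqstm1: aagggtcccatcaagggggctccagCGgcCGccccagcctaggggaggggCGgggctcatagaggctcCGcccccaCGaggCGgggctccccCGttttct
Tax1bp1: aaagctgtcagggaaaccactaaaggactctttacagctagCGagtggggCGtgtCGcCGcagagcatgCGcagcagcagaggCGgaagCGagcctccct

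On recovery from OGD, most autophagy members fell in both genotypes. Among them the cargo receptor genes Sqstm1, Optn and Tax1bp1 fell the most. Of the 37 members, 23 fell and 4 rose in WT, where 56.8% of the 18842 genes tested were called, 29.9% lower and 26.9% higher. In KO, 23 fell and 3 rose, where 59% of genes were called, 29.6% lower and 29.3% higher. OGD and recovery libraries did not overlap for 29 members in WT and 27 in KO, and for 67.1% and 61.2% of all genes. A call means an adjusted p below 0.05 in edgeR's quasi-likelihood test over all genes. The members' median log2 fold change was -0.38 in WT and -0.39 in KO, beside -0.03 and 0.0002 for all genes, whose lower quartiles were -0.52 and -0.48. The same 22 genes fell in both genotypes, 95.7% of the called fallers of each. Atg4d was called lower only in WT and Ulk2 only in KO, and neither difference between genotypes passed the interaction test given below. In these bulk samples, fewer cells of one type and less RNA per cell cannot be told apart. Without the 2 libraries of highest mitochondrial share (WT-recovery 1 and KO-recovery 2), 20 members were lower in WT and 24 in KO. Without KO-recovery 1 and 3, 21 were lower in KO.

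**Figure D1:**
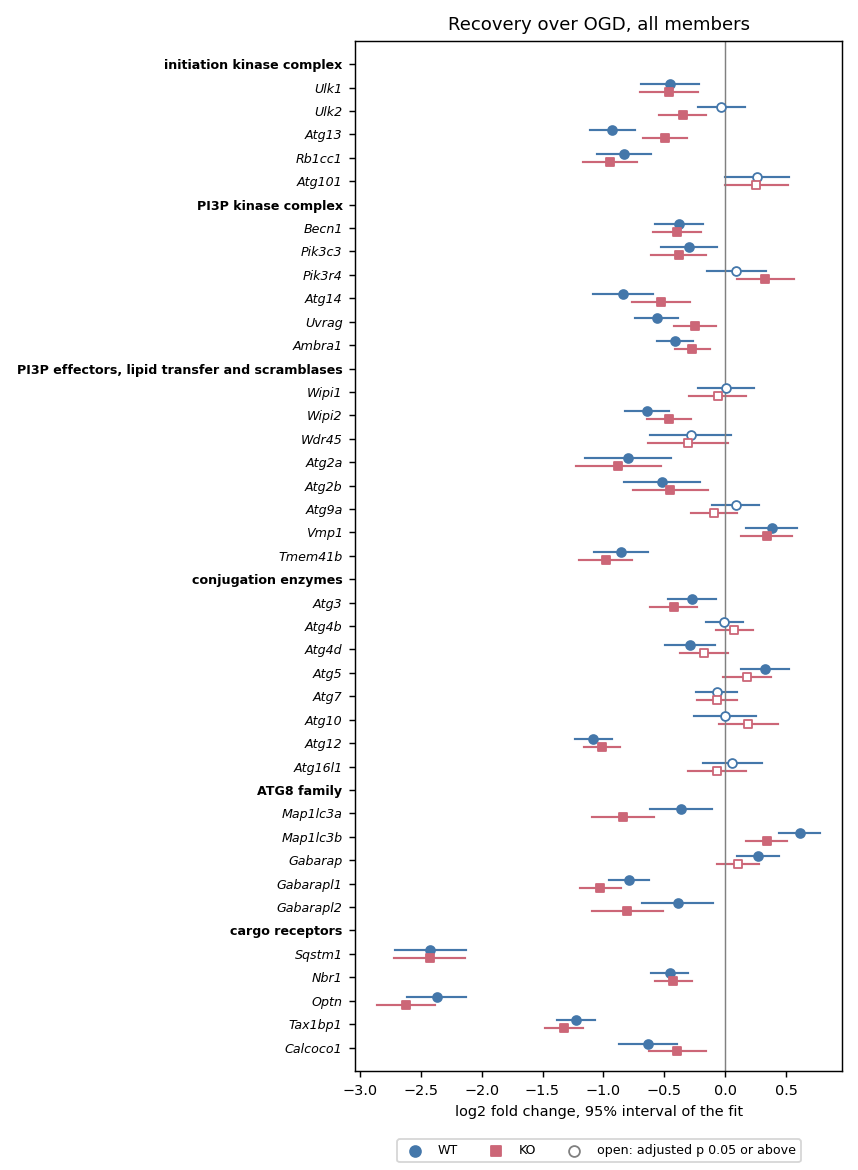
Log2 fold change (recovery over OGD, horizontal axis) of each of the 37 members, grouped by role, in WT (blue circles) and KO (red squares), with 95% intervals of the fit; filled symbols have an adjusted p below 0.05 and open ones do not. The cargo receptors Sqstm1 and Optn lie farthest left, below -2 in both genotypes, and Map1lc3b lies farthest right in WT.

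All 5 cargo receptors fell in both genotypes, with a median log2 fold change of -1.22 in WT and -1.32 in KO. Sqstm1 (ENSMUSG00000015837.15, chromosome 11, 50199366 to 50210827, minus strand, GRCm38) encodes p62, which binds ubiquitinated cargo and LC3. Its level was 1227, 1466 and 1183 CPM (WT) and 1640, 1123 and 1574 (KO) at the end of OGD, against 245, 237 and 241 (WT) and 256, 298 and 253 (KO) once recovered. Every recovery library lay far below every OGD library. Recovery over OGD gave a log2 fold change of -2.42 in WT (SE 0.14, adjusted p = 2.32e-09) and -2.43 in KO (SE 0.14, adjusted p = 1.62e-09; edgeR's quasi-likelihood test). The gene Mrnip overlaps 17.3% of its exons on the other strand but held 0.461% as many counts.

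Optn (ENSMUSG00000026672.11, chromosome 2, 5020642 to 5064051, minus strand) encodes optineurin, a ubiquitin-binding receptor for damaged mitochondria and bacteria. Its level was 101, 108 and 99.8 CPM (WT) and 125, 108 and 128 (KO) at the end of OGD, against 19.1, 18.4 and 22.2 (WT) and 16.5, 20.7 and 21.8 (KO) once recovered. OGD and recovery libraries did not overlap in either genotype. In edgeR's test the log2 value was -2.37 in WT (SE 0.11, adjusted p = 4.61e-10) and -2.62 in KO (SE 0.11, adjusted p = 1.13e-10), among members the lowest adjusted p in each genotype.

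Tax1bp1 (ENSMUSG00000004535.12, chromosome 6, 52713729 to 52766780, plus strand) encodes a receptor for ubiquitinated aggregates. It stood at 309, 322 and 294 CPM (WT) and 333, 332 and 352 (KO) at the end of OGD, against 135, 131 and 130 (WT) and 134, 139 and 133 (KO) once recovered. Replicates were close together and the times were clearly apart. In edgeR's test its log2 fold change was -1.22 in WT (SE 0.07, adjusted p = 3.53e-09) and -1.32 in KO (SE 0.07, adjusted p = 1.16e-09).

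The other 2 receptor genes fell less. Nbr1, whose product binds ubiquitinated cargo beside p62, went from 103 to 111 CPM in WT-OGD to 74.2 to 82.3 in WT-recovery (log2 fold change -0.46), and changed by -0.43 in KO. Calcoco1, which encodes an ER-associated receptor, changed by -0.63 in WT and -0.39 in KO, and the KO call was lost without KO-recovery 1 and 3 (highest adjusted p 0.115). The share of Sqstm1 in the summed receptor level per kilobase went from 82.5% ± 1.1 to 67.4% ± 0.48 in WT and from 82.8% ± 2.36 to 69.3% ± 1.16 in KO (SD, n = 3). The share of Tax1bp1 was 6.65% ± 0.414 in WT-OGD and 12.4% ± 0.23 in WT-recovery.

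The ATG8 family, the ubiquitin-like proteins that decorate the autophagosome, moved in both directions. Gabarapl1 (ENSMUSG00000030161.8, chromosome 6, 129533160 to 129542346) stood at 248.6, 268 and 237 CPM (WT) and 289, 262 and 295 (KO) at the end of OGD, against 142, 146 and 148 (WT) and 135, 146 and 135 (KO) once recovered. The times did not overlap, and the log2 fold change was -0.79 in WT and -1.03 in KO (adjusted p = 7.71e-07 and 4.11e-08, edgeR). The gene 1700101I11Rik overlaps 28.3% of its exons on the other strand, with 23.1% as many counts, so this gene is uncertain.

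Map1lc3b (ENSMUSG00000031812.16, chromosome 8, 121590361 to 121598760), which encodes the widely used autophagosome marker LC3B, went the other way. It stood at 85.4, 88.8 and 84.7 CPM (WT) and 83.9, 76.3 and 82.5 (KO) at the end of OGD, against 122, 133 and 140 (WT) and 103, 109 and 95.7 (KO) once recovered. All recovery libraries were above all OGD libraries. It rose by log2 fold changes of 0.61 in WT (SE 0.08, adjusted p = 1.02e-05) and 0.34 in KO (SE 0.08, adjusted p = 0.00165), both from edgeR.

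Gabarap, the most abundant family transcript per kilobase in each of the 4 groups, rose by 0.27 in WT (adjusted p = 0.00956, edgeR), a call lost without WT-OGD replicate 3 or without the low-count filter. Its difference in KO was 0.11 (adjusted p = 0.274, edgeR; 95% interval -0.07 to 0.28). Map1lc3a, encoding LC3A, fell by 0.37 in WT and 0.84 in KO, and Gabarapl2 fell by 0.39 in WT and 0.80 in KO. Both WT calls were lost in some alternatives, with adjusted p up to 0.0671 and 0.0885. Copies of Gabarapl2 (Gm3724, Gm5829 and Gm6051) cover 20.9% of its transcript, and Gm3724 held 24.4% as many counts, so Gabarapl2 is uncertain. Within the family, per kilobase, Gabarap made up 59.0% ± 0.8 (WT) and 59.0% ± 0.899 (KO) after OGD, against 72.0% ± 0.186 (WT) and 73.8% ± 0.528 (KO) after recovery. Gabarapl1 went from 31.3% ± 0.26 to 18.3% ± 0.0527 in WT and from 32.1% ± 0.775 to 18.3% ± 0.0395 in KO, so the family's composition differed between times by more than the spread of the libraries.

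**Figure D2:**
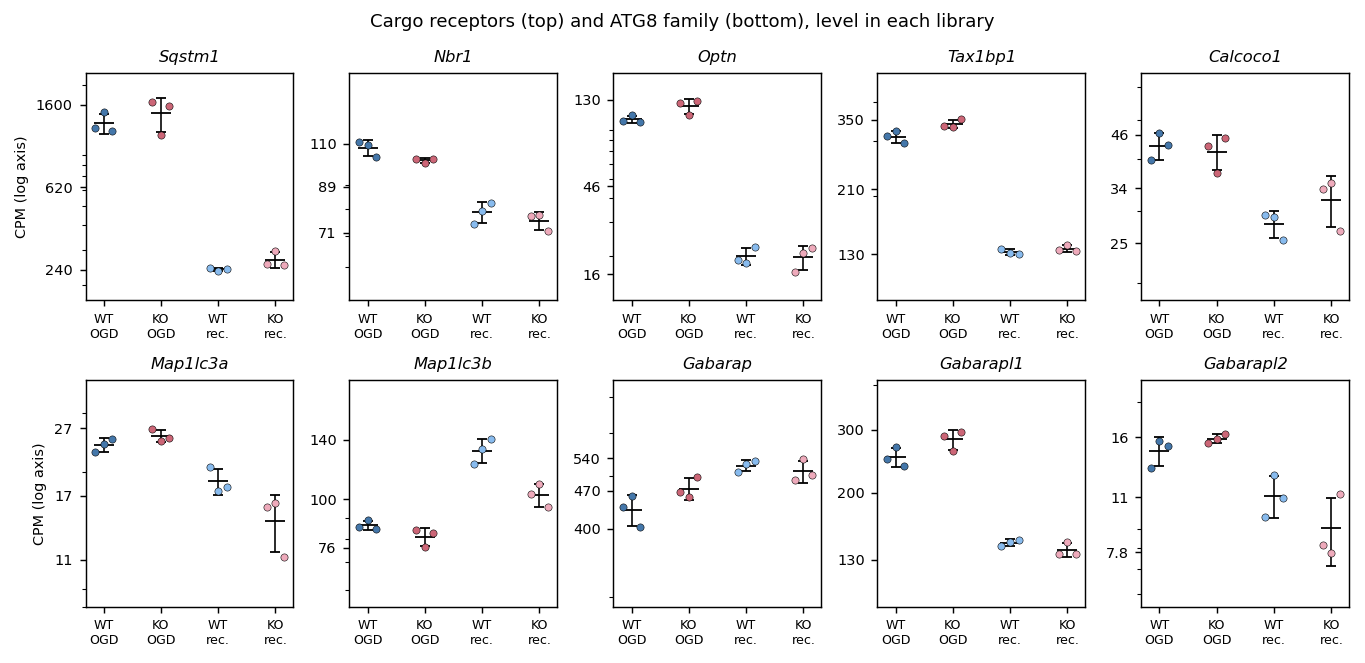
Level in CPM (log axis, each panel with its own range) of the 5 cargo receptors and 5 ATG8 family genes in each library of the 4 groups; points are libraries, and bars give the mean and SD of 3. Sqstm1, Optn and Tax1bp1 lie lower in recovery with no overlap, while Map1lc3b lies higher in recovery than after OGD.

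**Figure D3:**
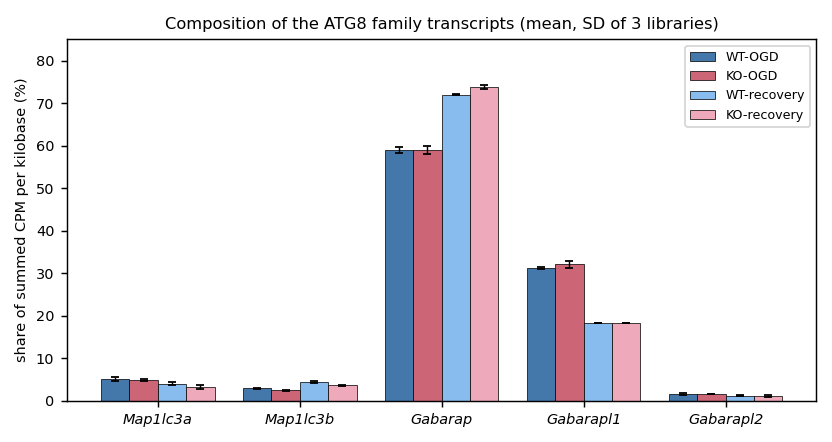
Share (%) of the summed ATG8 family level per kilobase of exon held by each of the 5 genes, by group; bars are means and error bars the SD of 3 libraries. The Gabarap share is higher and the Gabarapl1 share lower in both recovery groups.

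Of the 5 genes of the initiation kinase complex, 3 fell in WT and 4 in KO, and 0 rose. Atg13, encoding the adaptor that links the ULK kinases to the complex, stood at 53.1 to 60.5 CPM in WT-OGD and 28.6 to 30.9 in WT-recovery (log2 fold change -0.93, adjusted p = 4.75e-07). In KO it stood at 58.4 to 61.6 and 37.8 to 47.0 CPM (-0.50, adjusted p = 1.44e-04; both by edgeR). Rb1cc1, encoding the scaffold FIP200, fell by 0.83 in WT and 0.95 in KO. Of the kinase genes, Ulk1 fell by 0.45 and 0.46, while Ulk2 fell by 0.35 in KO and had a difference of -0.03 in WT (95% interval -0.23 to 0.16). Atg101, a stabiliser of ATG13, had log2 differences of 0.26 in both genotypes and missed the threshold (adjusted p = 0.0829 and 0.085, edgeR).

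In the PI3P kinase complex, 5 of 6 genes fell in each genotype. Atg14, which directs the complex to the forming autophagosome, changed by -0.84 in WT and -0.53 in KO. Uvrag, the subunit of the endosomal form, changed by -0.56 and -0.25, Ambra1, a regulator of beclin 1, by -0.41 and -0.27, and Becn1, which encodes beclin 1, by -0.38 and -0.39. The catalytic subunit gene Pik3c3 fell by 0.30 in WT and 0.38 in KO; its WT call was lost in 5 alternatives, including without the 2 libraries of highest mitochondrial share. Pik3r4, the regulatory kinase subunit, rose by 0.33 in KO (adjusted p = 0.0175, edgeR) and differed by 0.09 in WT (adjusted p = 0.505). The Pik3r4 call was lost in 5 alternatives and the Uvrag call in KO in 3. The exons of Becn1 overlap Cntd1 over 43.9% of their length and those of Uvrag another gene over 17.6%, so both are uncertain.

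The 8 genes for PI3P effectors, lipid transfer and scramblases gave 4 that fell and 1 that rose in each genotype. Tmem41b, an ER scramblase gene, fell by 0.85 in WT and 0.98 in KO, although a copy, Gm6223, covers 22.7% of its transcript. Atg2a and Atg2b, for the lipid-transfer proteins, fell by 0.80 and 0.52 in WT and by 0.88 and 0.45 in KO. Wipi2, for the PI3P-binding protein that recruits the conjugation machinery, fell by 0.64 and 0.46. The one that rose was Vmp1, a scramblase gene that contains Mir21a, at 201 to 224 CPM in WT-OGD, 254 to 311 in WT-recovery, 234 to 242 in KO-OGD and 279 to 339 in KO-recovery. Its OGD and recovery libraries did not overlap in either genotype, and the log2 fold changes were 0.38 and 0.34 (adjusted p = 0.00387 and 0.00776, edgeR). The KO call was lost without KO-recovery 2. Wipi1, Atg9a and Wdr45 were not called in either genotype, and of these Wdr45 had the largest differences, -0.28 and -0.30 (adjusted p = 0.134 and 0.103, edgeR). Other genes overlap 32.6% of the exons of Atg9a and 24.7% of those of Wdr45.

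Among the 8 conjugation genes, one stood out. Atg12, encoding the ubiquitin-like protein that is joined to ATG5, stood at 117, 120 and 111 CPM (WT) and 121, 126 and 126 (KO) at the end of OGD, against 51.7, 56.5 and 56.0 (WT) and 60.6, 61.6 and 62.6 (KO) once recovered. The times lay apart with little spread, and the log2 fold change was -1.08 in WT and -1.01 in KO (adjusted p = 9.04e-09 and 1.26e-08, edgeR). Its partner Atg5 instead rose by 0.33 in WT (adjusted p = 0.00704, edgeR) and differed by 0.18 in KO (adjusted p = 0.107). Atg3, encoding the enzyme that transfers ATG8 proteins to lipid, fell by 0.27 in WT and 0.42 in KO, and Atg4d, an ATG8 protease gene, fell by 0.29 in WT. Both WT calls were lost in 4 and 5 alternatives, and Kri1 overlaps 19.3% of the exons of Atg4d. Atg4b, Atg7, Atg10 and Atg16l1 were called in neither genotype, with log2 differences from -0.07 to 0.19.

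Of the other genes of the pathway, a list of 67 that held no member, 32 fell (47.8%) and 11 rose (16.4%) in WT, beside 29.9% and 26.9% of all genes. In KO 38 fell (56.7%) and 12 rose (17.9%), beside 29.6% and 29.3%. The rises in WT went to 7 without WT-recovery 3. Of the 30 upstream regulators, 17 fell and 7 rose in WT, and 18 fell and 6 rose in KO. The largest falls were in this list. Sesn2, a stress-induced inhibitor of mTORC1 signalling, stood at 128 to 146 CPM in WT-OGD and 25.6 to 28.3 in WT-recovery (log2 fold change -2.32) and changed by -2.36 in KO. Ddit4, encoding the mTORC1 inhibitor REDD1, changed by -2.15 and -3.12, Fnip2, a folliculin partner gene, by -2.05 and -1.71, and Rragd, a lysosomal GTPase gene for mTORC1, by -1.74 and -2.22. Akt1s1, encoding an mTORC1 inhibitor, changed by -1.83 and -1.86. These falling genes thus encode both inhibitors and activators of mTORC1. In the same list, Sesn1 rose by 1.42 in WT and 1.12 in KO. Deptor, for another mTORC1 inhibitor, rose by 0.96 and 0.95. Of the factors that bind CACGTG, Tfeb fell by 0.63 in WT and 0.53 in KO. Tfe3 rose by 0.46 and 0.72, and Mitf by 0.38 and 1.12. Of the organelle receptors, 9 fell and 1 rose in WT and 11 fell and 1 rose in KO. The mitophagy receptor genes Bnip3 and Bnip3l changed by -1.37 and -0.79 in WT and by -1.41 and -0.88 in KO, and Tollip, for an endosomal ubiquitin-binding adaptor, by -0.83 in WT. Nipsnap1, a mitochondrial protein gene, rose by 0.74 and 1.10. Of the 12 fusion genes, 3 rose (25%) in each genotype, 2 fell in WT (16.7%) and 3 in KO (25%), near or below the shares of all genes. The SNARE gene Vamp8 rose by 0.63 and 0.52, and the HOPS subunit gene Vps11 fell by 0.51 and 0.57. Among the other core genes, Epg5, encoding a tether between autophagosome and lysosome, changed by -1.18 and -0.67.

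Markers of microglia and of other cells also moved between the times. Among the cells' own markers, Itgam stood at 274 to 303 CPM in WT-OGD and 1005 to 1982 in WT-recovery, Sall1 at 22.0 to 24.9 and 4.40 to 6.36, and Cx3cr1 at 79.3 to 82.6 and 52.0 to 58.6, so they differed in both directions. All 5 monocyte markers tested were called higher in both genotypes. Their sum, mostly Fn1, was 104 to 178 CPM in WT-OGD and 503 to 823 in WT-recovery, and 58.4 to 99.5 and 1088 to 1296 in KO, while Ly6c2 and Plac8 were at most 0.366 CPM in any library. Of 8 neuron markers, 6 were called higher and 1 lower in WT, and 6 higher and 0 lower in KO. Their sums were 22.5 to 34.9 CPM in WT-OGD and 75.7 to 91.2 in WT-recovery, and 7.16 to 13.1 and 15.7 to 25.8 in KO. Rtn1 alone stood at 5.90 to 10.3 CPM in WT-OGD and 42.8 to 48.2 in WT-recovery. Stmn2 stood at 8.12 to 12.9 CPM in WT-OGD and 0.888 to 7.08 in WT-recovery. Oligodendrocyte lineage markers summed to 61.2 to 83.0 CPM after OGD and 150 to 244 after recovery. Of 5 endothelial and mural markers tested, 1 was called higher in WT and 2 in KO; their sum of at most 13.1 CPM after OGD and 65.9 to 132.5 after recovery was mostly Flt1 in recovery (62.1 to 128 CPM), and Cldn5 was at most 0.107 CPM in any library. Border macrophage markers summed to 789 to 907 CPM after OGD and 917 to 1429 after recovery. Mrc1 held most of these sums, at 734 to 829 CPM after OGD and 765 to 1073 after recovery. Pf4 stood at 3.80 to 4.73 CPM after OGD, 60.1 to 91.6 in WT-recovery and 235 to 421 in KO-recovery. The part of cell mixture in the members' changes was not tested.

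After OGD, before recovery, no autophagy member differed between genotypes at the threshold. Of the 37, 0 were higher and 0 lower in KO by edgeR's quasi-likelihood test, where 7.49% of all genes were called, 0.966% higher and 6.52% lower. At an unadjusted p below 0.05 there were 5 members (Rb1cc1, Ambra1, Atg7, Gabarapl1 and Optn), and DESeq2 called 2 higher, Ambra1 and Tax1bp1. The share of all genes is not given for either setting, so neither count is read as a result about the members. The members' median log2 fold change was 0.06, and the extremes were -0.26 for Rb1cc1 (95% interval -0.47 to -0.05, adjusted p = 0.144) and 0.23 for Optn (0.01 to 0.44, adjusted p = 0.235; both by edgeR). Next in size were Vmp1 at 0.18 and Atg7 at 0.17. Sqstm1 had a difference of 0.16 with an interval of -0.11 to 0.44, and its KO-OGD libraries spread more widely than those of WT. The 3 libraries of one genotype lay beyond all 3 of the other for 11 of the 37 members and 30.4% of all genes. Of the other 67 pathway genes, 0 were called, and 6 had an unadjusted p below 0.05, again without a share of all genes.

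After recovery, 9 members differed between genotypes, with 4 higher and 5 lower in KO. These shares, 10.8% and 13.5%, were near those of all genes, of which 22.2% were called, 10.1% higher and 12% lower. Genotypes did not overlap for 11 members and 33.5% of all genes. The members' median log2 fold change was -0.03 beside 0.01 for all genes. The initiation kinase complex held 1 higher and 2 lower members, the PI3P kinase complex 3 higher, the conjugation enzymes 1 lower and the ATG8 family 2 lower. Markers of other cells moved with genotype too. Of 7 border macrophage markers 2 were called higher and 0 lower in KO after recovery. Their sums were 917 to 1243 CPM in WT-recovery and 1297 to 1429 in KO-recovery, although Mrc1, which held most of each sum, overlapped between genotypes. Of 11 astrocyte markers 8 were called lower in KO after recovery, and their sums were 195 to 222 CPM in WT-recovery and 84.6 to 124 in KO-recovery, and 134 to 191 and 59.0 to 79.6 after OGD. Neuron markers (3 of 8 lower) summed to 75.7 to 91.2 CPM in WT-recovery against 15.7 to 25.8 in KO-recovery, and oligodendrocyte lineage markers (4 of 9 lower) to 199 to 244 against 150 to 176. Of 9 muscle, cartilage and connective tissue markers tested, 6 were higher in KO, with summed levels of 16.6 to 281 CPM there and 18.6 to 64.3 in WT. Of 5 monocyte markers tested, 2 were higher and the median log2 difference was -0.02; Fn1 alone stood at 397 to 732 CPM in WT-recovery and 970 to 1203 in KO-recovery. The part of these cells in the genotype differences was not tested.

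**Figure D4:**
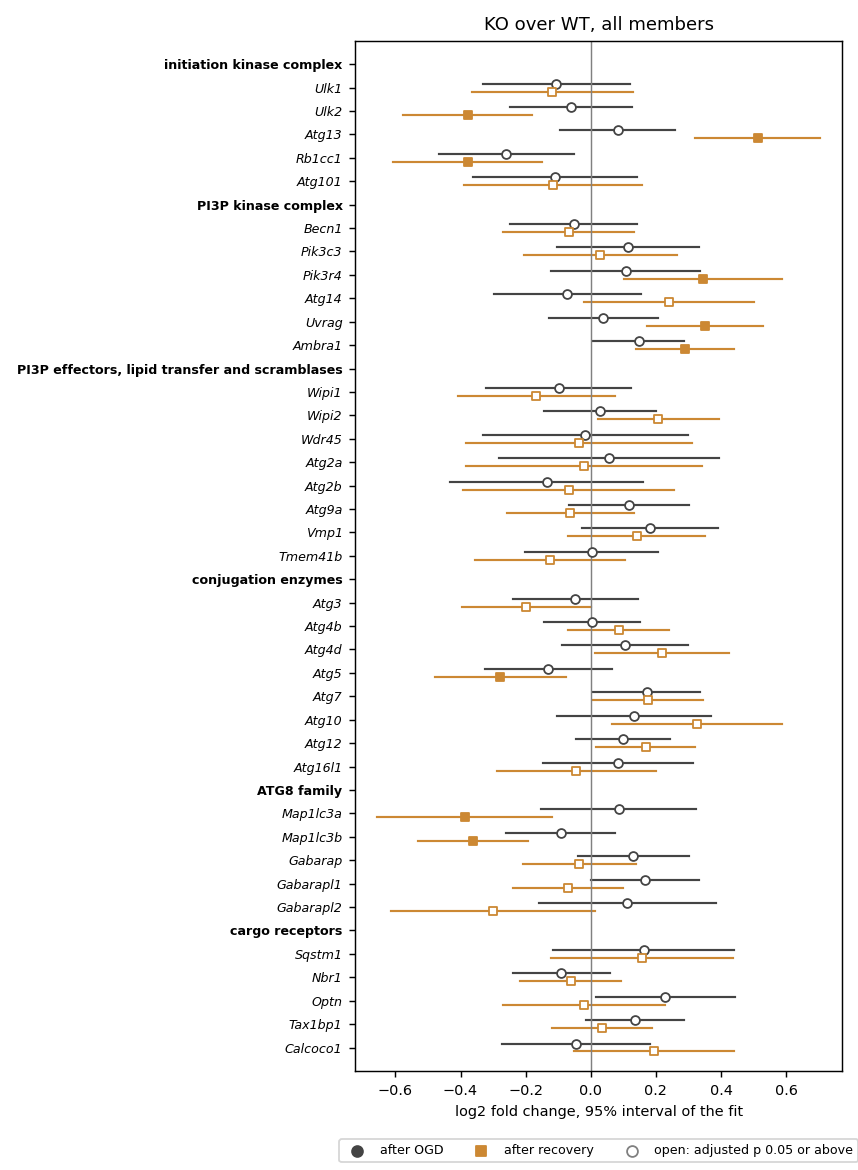
Log2 fold change (KO over WT, horizontal axis) of each of the 37 members, grouped by role, after OGD (dark circles) and after recovery (orange squares), with 95% intervals of the fit; filled symbols have an adjusted p below 0.05. No symbol is filled after OGD, and 9 are filled after recovery, from -0.39 (Map1lc3a) to 0.51 (Atg13).

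Atg13 (ENSMUSG00000027244.14, chromosome 2, 91674618 to 91710576, minus strand) differed the most. It stood at 29.9, 28.6 and 30.9 CPM (WT) and 43.1, 47.0 and 37.8 (KO). The genotypes did not overlap, with a log2 fold change of 0.51 (SE 0.09, adjusted p = 9.74e-04, edgeR's quasi-likelihood test). It was the only one of the 9 called in each of the 20 alternatives. The highest adjusted p among them was 0.0104.

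The other 3 higher members belonged to the PI3P kinase complex. Uvrag stood at 36.7, 37.2 and 40.7 CPM (WT) and 47.0, 53.3 and 46.1 (KO) (log2 fold change 0.35, adjusted p = 0.00768, edgeR). Ambra1 stood at 32.1, 32.4 and 30.8 (WT) and 39.4, 37.7 and 39.1 (KO) (0.29, adjusted p = 0.00887, edgeR). In both genes all KO libraries were above all WT libraries. Pik3r4 overlapped between genotypes, at 38.8, 29.1 and 28.7 CPM in WT and 42.4, 42.5 and 36.9 in KO (0.35, adjusted p = 0.0413, edgeR). Its call was lost in 8 alternatives. The Uvrag call was lost without the 2 libraries of highest mitochondrial share (adjusted p = 0.0754), and the Ambra1 call without KO-recovery 1 and 3 (adjusted p = 0.0998).

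Of the 5 lower members, Map1lc3b had the lowest adjusted p, with 122, 133 and 140 CPM in WT-recovery against 103, 109 and 95.7 in KO-recovery (log2 fold change -0.36, adjusted p = 0.00446, edgeR). Map1lc3a stood at 20.7, 17.6 and 18.1 CPM in WT and 15.7, 16.2 and 11.2 in KO (-0.39, adjusted p = 0.0385, edgeR). All KO libraries were below all WT libraries for both LC3 genes. The Map1lc3a call was lost in 12 alternatives and the Map1lc3b call without KO-recovery 1 and 3 (adjusted p = 0.0844).

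Ulk2 stood at 42.4, 49.8 and 50.1 CPM (WT) and 38.9, 36.4 and 34.6 (KO) (log2 fold change -0.38, adjusted p = 0.00925, edgeR). Rb1cc1 stood at 27.6, 28.1 and 25.5 in WT and 20.2, 18.2 and 23.8 in KO (-0.38, adjusted p = 0.0203, edgeR). For these 2 initiation genes KO libraries again lay below all of WT. Atg5 overlapped, at 53.6, 63.0 and 63.8 CPM in WT and 46.8, 46.4 and 55.8 in KO (-0.28, adjusted p = 0.0466, edgeR), and its call was lost in 14 alternatives. The Rb1cc1 call was lost in 6 alternatives and that of Ulk2 without KO-recovery 1 and 3 (adjusted p = 0.0569).

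**Figure D5:**
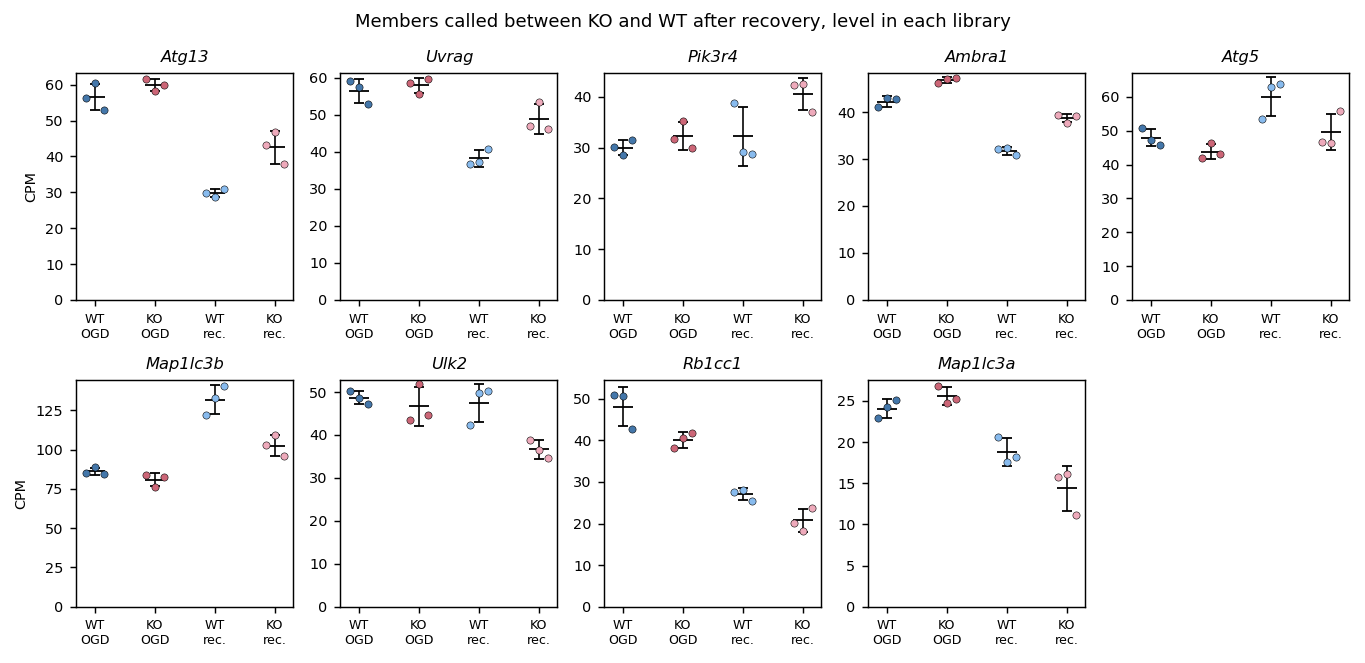
Level in CPM (linear axis from 0) of the 9 members called between genotypes after recovery, in each library of the 4 groups; points are libraries, and bars give the mean and SD of 3. For Atg13, Uvrag and Ambra1 the KO recovery points lie above those of WT, and for Map1lc3b, Ulk2, Rb1cc1 and Map1lc3a below.

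The remaining 28 members were not called between genotypes after recovery. Those with the largest differences were Atg10 at 0.33 (adjusted p = 0.0696), Gabarapl2 at -0.30 (0.158), Atg14 at 0.24 (0.175) and Atg4d at 0.22 (0.12; adjusted p by edgeR). None of the 5 cargo receptors was called: Sqstm1 had a difference of 0.16 (95% interval -0.12 to 0.44), Optn of -0.02 (-0.27 to 0.23), Tax1bp1 of 0.04 (-0.12 to 0.19), Nbr1 of -0.06 (-0.22 to 0.09) and Calcoco1 of 0.19 (-0.05 to 0.44). Gabarap and Gabarapl1 had differences of -0.03 (-0.21 to 0.14) and -0.07 (-0.24 to 0.10). Of the other pathway genes, 10 of 67 were higher and 10 lower in KO (14.9% each), and 7 of these 20 calls were kept in every alternative. The lower ones numbered 2 without WT-recovery 2, and 5 without WT-recovery 3 or without KO-recovery 1. Mitf, for a transcription factor of lysosomal genes, was higher by 0.82, the apoptosis inhibitor gene Bcl2 by 0.81 and the core genes Tecpr1 and Epg5 by 0.56 and 0.50. Pink1, encoding the kinase that marks damaged mitochondria, was lower by 0.73, Ddit4 by 0.71 and Trp53inp2, a nuclear cofactor of autophagy, by 0.63.

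Whether recovery changed a gene by different amounts in KO and WT was tested as an interaction, the KO change less the WT change. By edgeR's quasi-likelihood test 0 members were higher and 0 lower, where 5.25% of all genes were called, 2.89% higher and 2.36% lower. At an unadjusted p below 0.05 there were 5 (Ulk2, Atg13, Uvrag, Map1lc3a and Map1lc3b), and DESeq2 called 1 higher, Atg13. For these settings too the share of all genes is not given here, so the counts are not read as a result about the members. The nearest to the threshold was Atg13, with a difference of 0.43 (SE 0.12, 95% interval 0.17 to 0.69, adjusted p = 0.0558). The largest in the other direction was Map1lc3a at -0.47 (SE 0.17, adjusted p = 0.121), followed by Gabarapl2 at -0.41 (adjusted p = 0.244) and Ulk2 at -0.32 (adjusted p = 0.171; all by edgeR). For Atg4d the difference was 0.11 (adjusted p = 0.689). Sqstm1 had an interaction of -0.0048 with a 95% interval of -0.40 to 0.39. Of the 67 other pathway genes, 3 were called higher and 3 lower.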

How the data were processed

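Counts per gene were deposited by the authors as whole numbers, not normalized. The tools named per the submitters' processing notes were featureCounts and HISAT2, on GRCm38. Their versions and the counting options (strand, multiply placed reads) are not given in the sources used here, so 7 members with over 15% of exon length in another gene and 2 with over 15% in copies elsewhere are uncertain. Identifiers were matched without version to GENCODE M21 (55240 of 55421). Libraries held 9885259 to 45347118 counts, which limits low genes after recovery the most. Replicate pairs differed by more than sampling noise (chi-square per degree of freedom 6.66 to 60.2). Nothing says that replicates were separate animals or cultures, so the spread behind each p-value is that of these samples and may be technical.

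In R 4.3.3 with edgeR 4.0.16, genes were kept by filterByExpr (18842), scaled by TMM and fitted with a robust quasi-likelihood model over all 12 libraries with 1 mean per group. Contrast p-values were adjusted over all genes (Benjamini-Hochberg) and called at an adjusted p below 0.05. Intervals are 95% intervals of the fit. In simulated data with 200 changed genes for KO against WT after OGD (18292 genes), 81% of 2-fold and 97% of 4-fold changes were recovered, and 0.0536% of unchanged genes were called. Every simulated gene had the same dispersion, and only the deeper OGD libraries were compared. These rates therefore do not carry over to changes below 2-fold or to the shallower, less even recovery libraries. DESeq2 1.42.0, other scaling and filters, a replicate block, thinned libraries and leaving out libraries made 20 alternatives. The same settings for the other pathway genes were chosen after seeing the data.

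Members, lists and tests were chosen with earlier results of these data known. The rule for naming took, in each comparison, up to 20 called members by adjusted p, the 4 uncalled members with the largest differences, every ATG8 and receptor gene, and up to 4 called genes of each other pathway list by size. Members beyond it (such as Pik3c3, Atg3, Atg4d and Atg2b on recovery in WT) were named after their values were seen, to account for every member. The other pathway genes Tfeb, Tfe3, Sesn1 and Deptor, and Mitf on recovery, were also named after their values were seen. Same-numbered replicates did not deviate together (correlations -0.228 to 0.156), so the numbers were not taken as pairs. Promoter sequences are from RefSeq (GRCm38.p6), and 6 members had no entry. A microglial marker, and the marker sum that holds it, are not reported here.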

Additional observations from a re-analysis of the deposited data

Results flagged for a closer look

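Of the 67 other pathway genes, 3 were called higher (4.48%) and 3 lower (4.48%) by edgeR's quasi-likelihood interaction test (Benjamini-Hochberg over all genes), beside 2.89% and 2.36% of all genes. Leaving out 1 library in turn gave 0 to 4 higher and 1 to 7 lower. The difference from the members, of which 0 were called, was not tested. Each of the 6 calls was lost in at least 1 of the 20 alternatives.

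Trp53inp2, encoding a nuclear cofactor that binds ATG8 proteins, moved in opposite directions. It stood at 123, 123 and 119 CPM (WT) and 115, 129 and 126 (KO) at the end of OGD, against 132, 169 and 163 (WT) and 103, 112 and 86.1 (KO) once recovered. It rose by 0.35 on recovery in WT and fell by 0.30 in KO, an interaction of -0.65 (adjusted p = 0.0218, edgeR), lost in 7 alternatives.

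Pink1, the mitophagy kinase gene, stood at 45.4, 51.6 and 47.9 CPM (WT) and 51.4, 44.9 and 46.7 (KO) at the end of OGD, against 37.1, 37.1 and 42.5 (WT) and 24.9, 26.4 and 19.2 (KO) once recovered. It fell in both genotypes and further in KO, with an interaction of -0.72 (adjusted p = 0.0147, edgeR), lost only without KO-recovery 1 and 3 (adjusted p = 0.0567). Ddit4 also fell further in KO, with an interaction of -0.97 (adjusted p = 0.0327, edgeR), lost in 10 alternatives.

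In the other direction, Tsc1, encoding a subunit of the complex that inhibits mTORC1, fell by 1.32 in WT and 0.85 in KO, an interaction of 0.47 (adjusted p = 0.0235, edgeR), lost in 7 alternatives. Epg5 likewise fell less in KO, with an interaction of 0.51 (adjusted p = 0.031, edgeR), lost in 12. Mitf rose by 0.38 in WT and 1.12 in KO, an interaction of 0.74 (adjusted p = 0.0254, edgeR), lost in 7. Levels of markers of other cells differed between the same groups, and their part was not tested.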

How the results depend on the processing

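No called member reversed its direction in any of the 20 alternatives. Of the calls on recovery, 21 of 27 in WT and 21 of 26 in KO were kept in every alternative, against 1 of 9 between genotypes after recovery. The cause of the changes below was not tested.

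Between genotypes after OGD, 1411 genes were called, 2148 without the low-count filter and 652 in libraries thinned to the shallowest. Members called higher went from 0 to 2 with DESeq2, for which the share of all genes is not given. The members' median went from 0.06 to 0.095 with RLE factors. After recovery, 4175 genes were called and 2756 with only the 6 libraries compared; members called lower went from 5 to 2 with those 6, and to 3 without the 2 libraries of highest mitochondrial share or with thinning. The members' median there was 0.058 without KO-recovery 1 and 3 (main value -0.03), where the lone KO-recovery library is assumed to vary like the other groups. On recovery in WT the median was -0.38, and -0.34 with RLE factors, -0.43 without the filter, -0.34 with DESeq2 and -0.33 leaving out the 2 libraries of highest mitochondrial share. In KO it was -0.39, and -0.46 without the filter and -0.35 thinned. The interaction called 989 genes, 1980 without the filter, 1517 with DESeq2 and 600 thinned; members called higher went from 0 to 1 with DESeq2 and without KO-recovery 1 and 3. The 6-library alternative could not be fitted for the interaction.

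With the replicate number as a block, members called lower between genotypes after recovery went from 5 to 3 and interaction genes from 989 to 657, and no other count of members or genes called in the 5 comparisons moved by over 1.5 times. The labels share only a number, since same-numbered libraries did not deviate together.

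Leaving out 1 library in turn gave 524 to 1742 genes between genotypes after OGD, 2653 to 5279 after recovery and 479 to 1770 for the interaction. Members called higher after recovery ran from 3 to 7 (7 without KO-recovery 3) and lower from 2 to 6: 2 without WT-recovery 2, and 3 without any 1 of WT-OGD 1, 2 or 3, KO-OGD 3, WT-recovery 3 or KO-recovery 1 or 2. Members called higher on recovery in KO ran from 1 (without KO-recovery 2) to 4, and interaction members from 0 to 1 in each direction. Medians ran from 0.03 to 0.09 and -0.064 to 0.017 between genotypes, after OGD and after recovery, and from -0.43 to -0.35 on recovery in WT. Depth limits the shallower recovery libraries most.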
